A study of Homo sapiens with 12 samples.

Results

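The genes described here are 38 genes of the DNA replication machinery, out of 60483 genes in the counts table. They were taken by name as members of 9 role groups: the MCM2-7 helicase, origin licensing, helicase activation, the sliding clamp and its loader, polymerases and primase, flap removal and ligation, single-strand DNA binding, nucleotide supply, and chromatin assembly. Their symbols were joined to the table by Ensembl identifier, and all 38 passed the filter on low counts, which kept 17175 genes. The rule itself uses no measured value.

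RNA was sequenced from HUDEP-2 cells, an immortalized human erythroid progenitor line, in 4 groups of 3 libraries. Control cells received a scrambled guide RNA (sgSCR, genotype labelled WT) and knockout cells carried a disruption of MBD2 (MBD2KO), a protein that binds methylated DNA. Cells before differentiation were in SFEM expansion medium with SCF, EPO, dexamethasone and doxycycline; cells after differentiation were in IMDM with EPO, doxycycline, insulin, heparin, holo-transferrin and human AB serum. EPO and doxycycline were thus present in every group, and medium and stage cannot be told apart. The labels give the length of differentiation as 3 days in the account of RNA extraction and 5 days in that of culture. They do not say whether the knockout cells were a clone or whether replicates were separate cultures, so the p-values rest on the spread between libraries alone, which may be technical.

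Before S phase, the origin recognition complex with CDC6 and CDT1 loads the MCM2-7 ring onto DNA. CDC45 and the GINS complex then join the ring to make the active helicase, and RPA coats the single strands it exposes. Polymerase alpha with primase starts each strand, the RFC complex loads the PCNA clamp, and polymerases delta and epsilon extend the strands. FEN1 and LIG1 finish the lagging strand, CAF-1 (CHAF1A, CHAF1B) places histones behind the fork, and ribonucleotide reductase (RRM1, RRM2) and thymidine kinase TK1 supply nucleotides. Many of these genes are transcribed at the G1/S transition under E2F factors, and erythroid precursors go on dividing while they mature. In a bulk library, fewer cells in S phase and less RNA per cell cannot be told apart.

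Total counts per library ran from 7667997 to 14047498. Values below are CPM, each count divided by its library's TMM-scaled total and given in the field's usual unit. MBD2 RNA, the check of the labels, stood before differentiation at 78.7, 77.7 and 75.3 in the controls against 22.7, 19.8 and 24.5 in the knockouts, and afterwards at 61.4, 59.1 and 58.2 against 16.8, 16.1 and 14.6, log2 fold changes of -1.79 ± 0.08 and -1.91 ± 0.09 (SE). All 18 erythroid markers averaged at least 10 CPM, and all 13 lymphoid and 10 stromal and endothelial markers averaged under 1 CPM. Ribosomal RNA took 1.68% to 2.74% of counts in knockout libraries after differentiation and 0.394% to 1.29% in the other 9. Deviations from the group mean rose most with transcript GC content over the 38 members in 3 libraries. They were control replicate 3 before (r = 0.66), knockout replicate 2 before (r = 0.74) and knockout replicate 3 after differentiation (r = 0.69). In the other libraries of these groups r ran from -0.72 to -0.42. Deviations from a group's own mean cancel by construction, so a positive r in 1 library comes with a negative r elsewhere in its group. This balance does not show whether GC content entered the comparisons between groups. In control libraries after differentiation r ran from -0.18 to 0.26.

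The members spanned a wide range of levels. Per kilobase of summed exon length, PCNA was the most abundant in control cells before differentiation at 260 ± 10.5 CPM per kb (SD, n = 3), followed by MCM3 at 125 ± 7.68 and MCM4 at 89.0 ± 4.03. The lowest was CHAF1B, a subunit of CAF-1, at 3.15 ± 0.10 CPM per kb. The 3 libraries of PCNA, MCM3, MCM4 and MCM7 did not overlap those of the next gene in this order, but 25 of the 37 neighbouring pairs overlapped. Subunits of the same complex were not at the same level by this measure. Within the helicase ring, MCM5 stood at 20.2 ± 1.79 CPM per kb against 125 ± 7.68 for MCM3, and among the nucleotide enzymes RRM2 stood at 25.1 ± 1.06 against 65.4 ± 2.75 for RRM1. The length sums all annotated exons, 7338 bases for MCM5 and 3650 for MCM3. Their longest coding transcripts have 3534 and 3208 bases. The order of genes and the size of such gaps thus depend on the length used. After differentiation in knockout cells the order had shifted: MCM4 (108 ± 4.33) and MCM3 (101 ± 3.36) overlapped, and RRM2 reached 44.7 ± 2.03 CPM per kb beside 51.1 ± 3.68 for RRM1, without overlap.

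**Figure D1:**
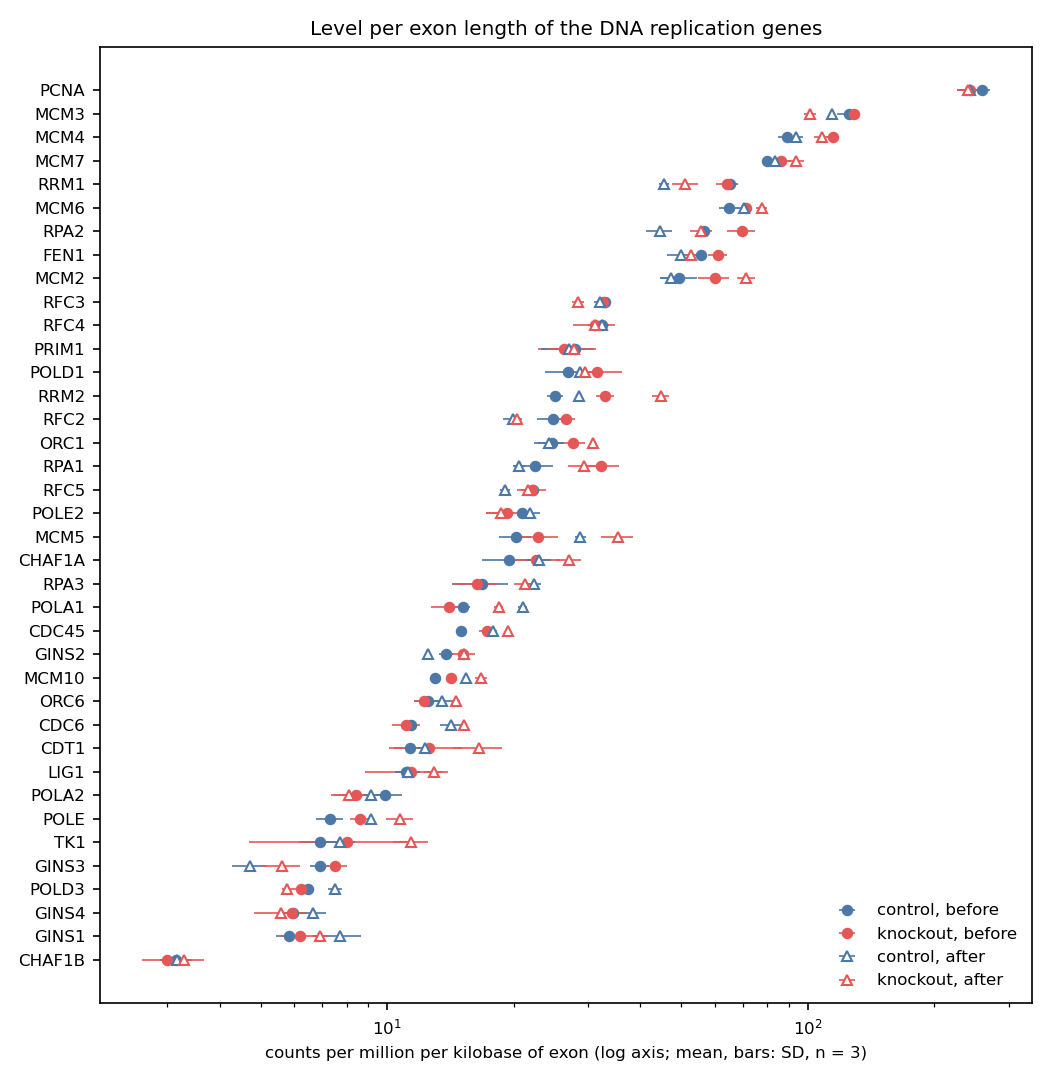
Level of each of the 38 genes in CPM per kilobase of exon (log axis), as mean and SD of 3 libraries for each of the 4 groups, ordered by the control cells before differentiation. PCNA lies highest at 260 and CHAF1B lowest at 3.15 CPM per kb in control cells before differentiation.

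Knockout cells had more RNA of several members at both stages, among them a subunit of ribonucleotide reductase (RRM2), both larger subunits of RPA (RPA1 and RPA2) and the helicase subunits MCM2 and MCM4. Before differentiation 7 of 38 members (18.4%) were higher and 0 lower, where 9.07% and 8.15% of all tested genes were called in those directions (edgeR's quasi-likelihood test, Benjamini-Hochberg adjusted p under 0.05). Beside the count of 0, 1 member, POLA2, was lower at an unadjusted p under 0.05, and DESeq2 also called 0. After differentiation 12 members (31.6%) were higher and 5 (13.2%) lower, against 16.8% and 16.3% of all genes. The median log2 fold change of the members was 0.10 before and 0.13 after differentiation, beside medians of -0.00 and -0.01 over all genes. By whole groups, 11 members before and 20 after lay higher in every knockout library than in every control library, where 15.3% and 23.2% of all genes did so; 0 and 6 lay lower throughout, where 15.4% and 23.6% did. The 38 genes together took 0.472% to 0.499% of the scaled counts in control and 0.528% to 0.536% in knockout libraries before differentiation, and 0.48% to 0.499% against 0.533% to 0.554% after it.

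These counts depend on the scaling and on single libraries. With library sizes only, without TMM factors, the median of all genes after differentiation moved from -0.01 to -0.17. That of the members moved from 0.13 to -0.03. The calls there became 3 higher and 10 lower among the members, beside 1843 higher and 4826 lower of all 17175 genes. Before differentiation they were 4 higher and 0 lower, beside 1237 and 1547 of all genes. Without knockout replicate 3 after differentiation 7 members were higher at that stage, beside 2548 of 17600 genes. The count of lower members there was 1 without control replicate 2 before differentiation (2627 of 17662 genes). It was also 1 without control replicate 3 after (2457 of 17654) or knockout replicate 2 after differentiation (2277 of 17632). Before differentiation the count of higher members was 4 when replicate 1 or 2 of the control, or replicate 2 of the knockout, was left out of that stage. Of all genes 1024, 1057 and 1209 were higher in these fits, in that order.

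Of the nucleotide supply genes, RRM2 changed most. RRM2, the small subunit of ribonucleotide reductase (chr2:10122328-10131419, build GRCh38, plus strand), stood at 119, 125 and 129 CPM in control libraries against 155, 163 and 172 CPM in knockout libraries before differentiation. After it the values were 140, 142 and 143 against 213, 233 and 218 CPM. At each stage every knockout library lay above every control library. The log2 fold change was 0.39 ± 0.06 (SE, 1.31-fold, adjusted p = 0.000196) before and 0.64 ± 0.06 (1.56-fold, adjusted p = 3.52e-07) after differentiation. The large subunit RRM1 was not called, at a log2 fold change of -0.03 ± 0.07 before and 0.17 ± 0.07 after. TK1, which salvages thymidine, was higher after differentiation, at 14.2, 15.7 and 13.4 CPM in control and 19.3, 21.1 and 23.3 in knockout libraries (log2 fold change 0.55 ± 0.20, adjusted p = 0.0417). Before differentiation knockout replicate 2 had 22 CPM of TK1 beside 11 and 11.7 in the other knockout libraries, and the groups overlapped. The TK1 call ended when any of 6 of the 12 libraries was left out, with an adjusted p of up to 0.146 over the alternatives.

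Of the RPA subunits, the 2 larger were higher and the smallest was not called. RPA1, the largest subunit and main DNA-binding part (chr17:1829702-1900082, plus strand), had 108, 129 and 132 CPM in control libraries against 158, 196 and 176 CPM in knockout libraries before differentiation, and 109, 114 and 116 against 150, 175 and 158 CPM after it. The groups did not overlap at either stage, with log2 fold changes of 0.52 ± 0.09 (adjusted p = 0.000431) and 0.51 ± 0.09 (adjusted p = 0.000286). RPA2 had 116, 117 and 110 CPM in control and 149, 129 and 145 in knockout libraries before, and 82.6, 94.5 and 91.8 against 119, 114 and 105 after differentiation. Its log2 fold changes were 0.30 ± 0.07 (adjusted p = 0.00813) and 0.33 ± 0.07 (adjusted p = 0.00235). RPA3 gave -0.05 ± 0.10 and -0.06 ± 0.10, with overlapping groups.

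Within the helicase ring, subunits were called in both directions. MCM4 had 580, 607 and 635 CPM in control libraries against 774, 773 and 817 CPM in knockout libraries before differentiation, and 618, 637 and 666 against 714, 722 and 769 CPM after it. Both differences were called, at log2 fold changes of 0.38 ± 0.06 (adjusted p = 0.00045) and 0.20 ± 0.06 (adjusted p = 0.0235), and the groups did not overlap. MCM2 (chr3:127598223-127622436, plus strand) had 217, 245 and 266 CPM against 291, 320 and 270 CPM before, and 218, 234 and 244 against 335, 347 and 368 CPM after differentiation. Its knockout libraries lay clear of the controls after differentiation (log2 fold change 0.59 ± 0.08, adjusted p = 2.37e-05) and just above them before (0.28 ± 0.08, adjusted p = 0.0265). The earlier MCM2 call ended when any of 4 libraries of that stage was left out, at an adjusted p of 0.158 and 0.0736 for replicates 1 and 2 of the control and of 0.0508 and 0.114 for replicates 1 and 2 of the knockout. That call also ended with library sizes only (0.0683) and with only the groups compared (0.0788). MCM5 and MCM7 were higher after differentiation, at 0.29 ± 0.09 and 0.17 ± 0.06. MCM3 was lower there, with 410, 425 and 417 CPM in control and 363, 362 and 384 in knockout libraries (log2 fold change -0.18 ± 0.06, adjusted p = 0.037). MCM6 was called at neither stage, at 0.13 ± 0.06 and 0.14 ± 0.06.

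Among the licensing genes, ORC1, the largest subunit of the origin recognition complex, and CDT1, the MCM loading factor, were higher in knockout cells after differentiation. ORC1 had 71.1, 75.2 and 83.5 CPM in control libraries against 98.4, 96.6 and 97.2 CPM in knockout libraries, a log2 fold change of 0.35 ± 0.07 (adjusted p = 0.0016). CDT1 had 40.5, 42.9 and 39.3 against 49.5, 52.4 and 63.4 CPM, a log2 fold change of 0.42 ± 0.12 (adjusted p = 0.0119). The adjusted p of CDT1 was 0.0729 without knockout replicate 3 and 0.113 with library sizes only. Neither gene's groups overlapped at that stage, and ORC6 and CDC6 were not called. Of the helicase activation genes, GINS2 was higher after differentiation at 0.28 ± 0.07 (adjusted p = 0.00425) and CDC45 before it at 0.21 ± 0.06 (adjusted p = 0.0357). The CDC45 call held in only 3 of the 12 fits that left out a library, with an adjusted p of up to 0.233 over the alternatives.

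Of the 7 polymerase and primase genes 3 were lower and 1 was higher in knockout cells after differentiation, and of the 3 lower calls only that of POLD3 held with each library left out. POLD3, an accessory subunit of polymerase delta (chr11:74493851-74669117, plus strand), had 41.3, 42.9 and 39.9 CPM in control libraries against 31.3, 32.7 and 31.4 CPM in knockout libraries. The groups did not overlap, at a log2 fold change of -0.38 ± 0.07 (adjusted p = 0.000777). POLA1, the catalytic subunit of polymerase alpha, gave -0.19 ± 0.07 (adjusted p = 0.0433), and POLE2, an accessory subunit of polymerase epsilon, gave -0.23 ± 0.08 (adjusted p = 0.0454). The POLA1 call held in 2 and the POLE2 call in 4 of the 12 fits that left out a library, with adjusted p of up to 0.147 and 0.178, and without the filter on low counts both ended (0.083 and 0.0502). POLE, the catalytic subunit of that enzyme, was higher at both stages, with 112, 121 and 131 against 138, 152 and 139 CPM before and 151, 155 and 151 against 168, 175 and 193 CPM after differentiation. Its log2 fold changes were 0.24 ± 0.07 (adjusted p = 0.028) and 0.23 ± 0.07 (adjusted p = 0.0205). The clamp loader subunit RFC3 was lower after differentiation at -0.18 ± 0.06 (adjusted p = 0.0349). PCNA, the clamp itself, was called at neither stage, with 343 to 378 CPM in control and 330 to 366 CPM in knockout libraries after differentiation. FEN1, LIG1, CHAF1A and CHAF1B were not called at either stage.

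**Figure D2:**
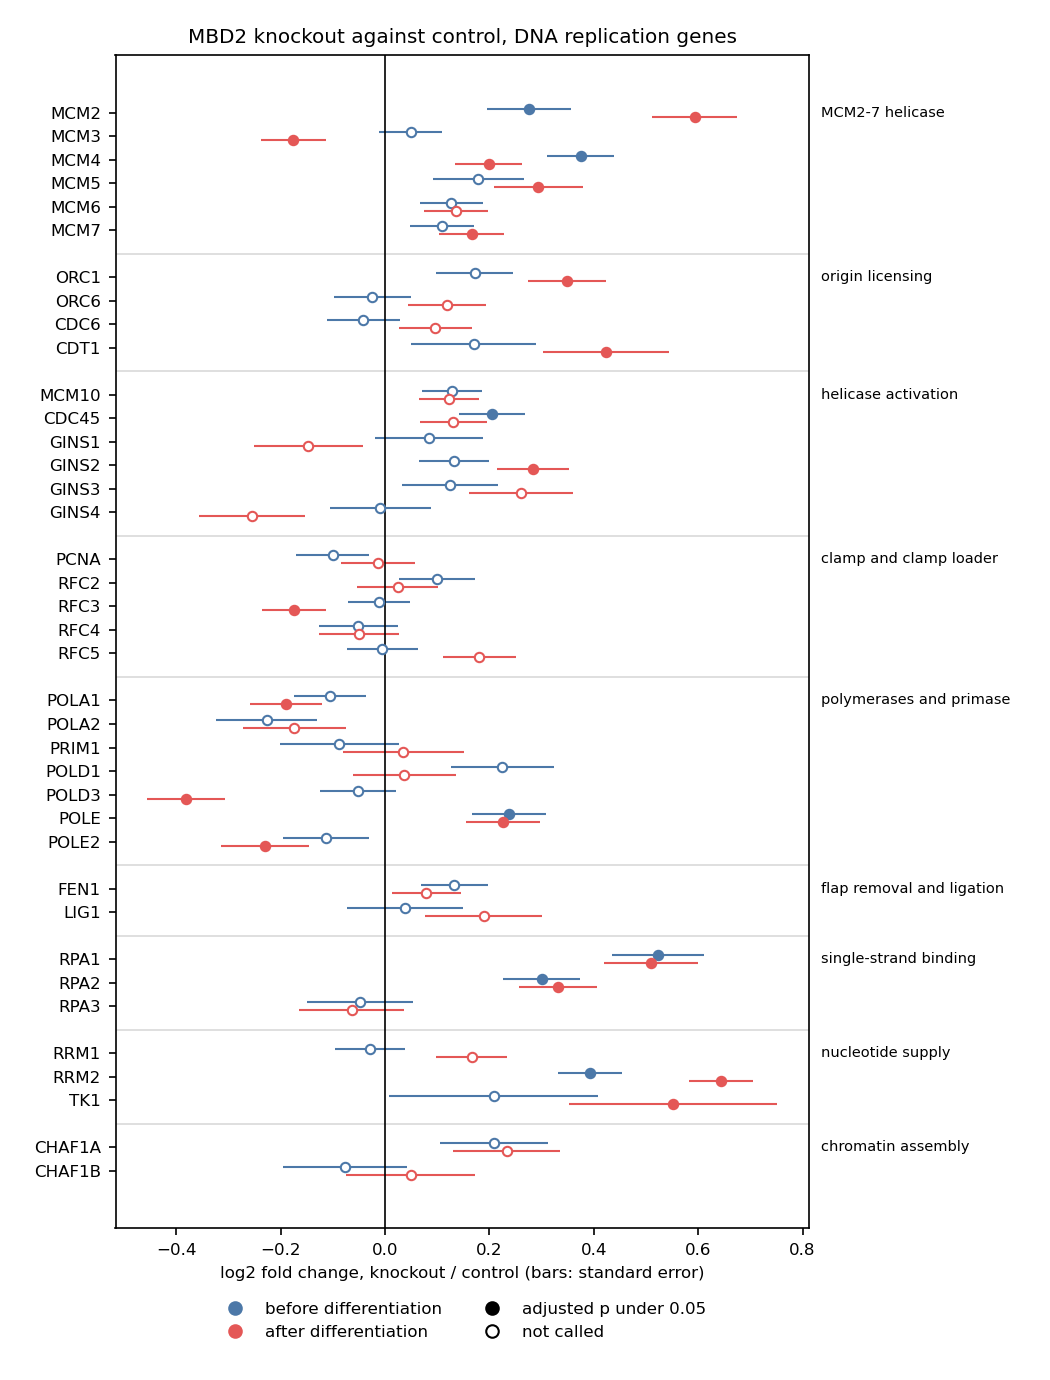
Log2 fold change of knockout against control cells for each of the 38 genes, before (blue) and after (red) differentiation, grouped by role, with standard errors as bars and filled points for an adjusted p under 0.05. RRM2 after differentiation lies farthest to the right at 0.64 and POLD3 after differentiation farthest to the left at -0.38.

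Across the stages, 6 members were higher in knockout cells at both: MCM2, MCM4, POLE, RPA1, RPA2 and RRM2. Among all genes, 59.2% of those higher before differentiation were also higher after it, which is 32% of those higher after it. The calls of MCM4, RPA1, RPA2 and RRM2 before differentiation and of MCM2, POLD3, RPA1 and RRM2 after it held in every alternative and with each of the 12 libraries left out in turn. The calls of ORC1, RPA2 and GINS2 after differentiation also held without each library; ORC1 (adjusted p = 0.0589) and RPA2 (0.0559) lost it with library sizes only, and GINS2 there (0.177) and without the filter on low counts (0.0548). The MCM5 call ended without knockout replicate 3 after differentiation (adjusted p = 0.0761) and with library sizes only (0.285). The MCM7 call after differentiation held in 3 of the 12 fits that left out a library and also ended with RLE size factors (adjusted p = 0.0625), with library sizes only (0.927) and without the filter (0.321). Those of MCM3 and RFC3 after differentiation each held in 6 of the 12 and ended without the filter (0.0802 and 0.14). The calls of MCM4 and POLE after differentiation, and of POLE before it, each held in 9 of the 12. After differentiation MCM4 lost its call without control replicate 1 or 2 or knockout replicate 3 of that stage, and POLE without control replicate 1 or 3 or knockout replicate 3. Before it POLE lost its call without control replicate 1 or 2 or knockout replicate 2. With library sizes only and without the filter, the MCM4 call after differentiation also ended (adjusted p = 0.67 and 0.139). The POLE calls ended there too, after differentiation (0.533 and 0.0939) and before it (0.0887 and 0.0505). With only the groups compared, the POLE call before differentiation ended as well (0.0736).

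GC content of the transcripts moved with the knockout differences. Members higher after differentiation had a median GC content of 53.6% and those lower 43.0%, beside 45.9% in members not called. Over the 38 members the log2 fold change had r = 0.39 with GC content before and r = 0.44 after differentiation, while over 17055 tested genes r was 0.20 and 0.06. These genes share the same 12 libraries, so the values describe them and carry no test. After differentiation GC content ran from 45.8% to 64.9% in the higher members, from 39.1% to 51.6% in the lower and from 40.1% to 65.0% in those not called. The part of GC content in the results was not tested.

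Ratios of counts within a library do not depend on the scaling. They were chosen after the values had been seen and carry no test; 3 libraries against 3 could not go below p = 0.1 in an exact two-sided permutation test. The ratio of RRM2 to RRM1 counts was 0.423, 0.448 and 0.497 in control and 0.565, 0.651 and 0.617 in knockout libraries before differentiation, and 0.736, 0.766 and 0.73 against 1.0, 1.02 and 1.1 after it. The 4 groups did not overlap. The ratio of MCM2 to MCM3 was 0.533, 0.55 and 0.585 in control and 0.924, 0.958 and 0.96 in knockout libraries after differentiation. Before it the same ratio ran from 0.501 to 0.55 in control and from 0.565 to 0.692 in knockout libraries. RPA2 to RPA3 gave 1.2, 1.28 and 1.25 against 1.65, 1.62 and 1.64 after differentiation.

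**Figure D3:**
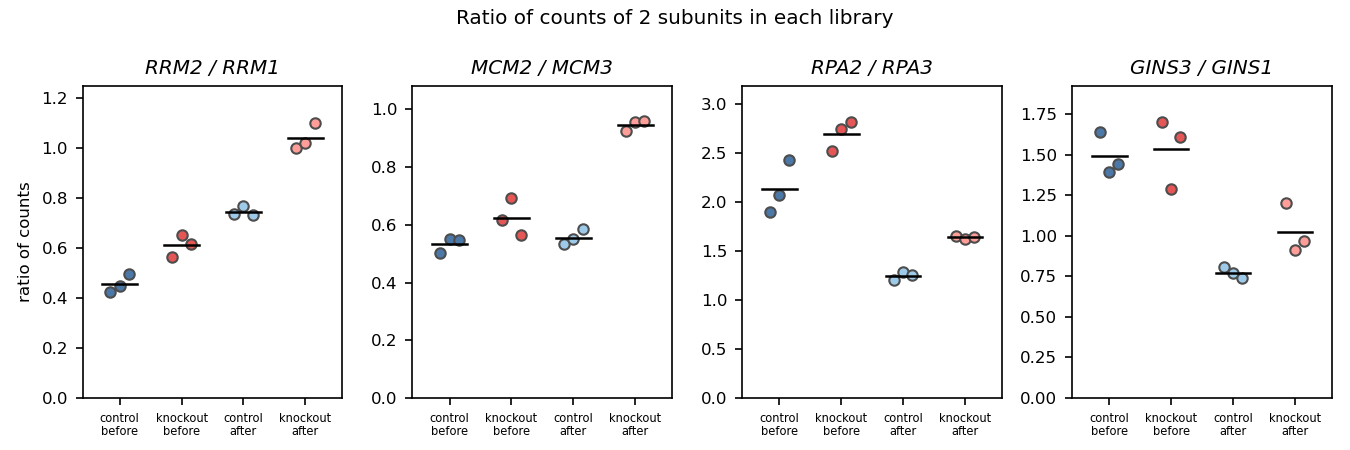
Ratio of the counts of 2 subunits in each library (points) with group means (lines), for RRM2 over RRM1, MCM2 over MCM3, RPA2 over RPA3 and GINS3 over GINS1, in the 4 groups. The RRM2 over RRM1 ratio climbs from 0.423 in the lowest control library before differentiation to 1.1 in the highest knockout library after it.

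Differentiation changed members in both directions in control cells. There 10 members (26.3%) were higher and 5 (13.2%) lower after it, against 21.5% and 22.3% of all genes (43.8% either way), with a median log2 change of 0.06 beside 0.01 over all genes. In knockout cells 13 (34.2%) were higher and 7 (18.4%) lower, against 28% and 27.7% (55.7% either way), with a median of 0.10 beside 0.03. By whole groups, 11 members in control and 13 in knockout cells lay higher in every library after differentiation, where 26.8% and 30.3% of all genes did; 7 and 8 lay lower, where 27.2% and 29.7% did. With library sizes only, the calls became 8 higher and 8 lower in control cells, beside 3178 and 4277 of all 17175 genes. In knockout cells they became 4 higher and 17 lower, beside 3427 and 6337, and the median of all genes there moved to -0.16. In knockout cells 8 members were higher without knockout replicate 3 of either stage. Of all genes 4533 of 17677 were higher without that of the earlier stage and 4483 of 17600 without that of the later.

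MCM5 showed the largest rise in both genotypes. It went from 139, 142 and 163 to 218, 208 and 208 CPM in control and from 157, 190 and 156 to 236, 260 and 282 CPM in knockout cells, without overlap (log2 fold changes 0.52 ± 0.09, adjusted p = 0.000136, and 0.63 ± 0.09, adjusted p = 9.94e-06). POLA1 rose from 100, 93.7 and 92.3 to 137, 131 and 131 CPM in control cells (0.48 ± 0.07, adjusted p = 2.3e-05) and by 0.40 ± 0.07 in knockout cells (adjusted p = 0.00011). CDC6, RPA3, POLE, MCM10, CDC45 and RRM2 also rose in both genotypes, by 0.19 to 0.40 in control and 0.17 to 0.45 in knockout cells on the log2 scale. GINS1 and POLD3 were called higher in control cells only, and MCM2, ORC6, CDT1, TK1 and CHAF1A in knockout cells only; none of these differences between genotypes but that of POLD3 passed the test given below. Of these calls, those of RRM2 and POLD3 in control cells and of CDC45, TK1 and CHAF1A in knockout cells held in 8 of the 12 fits that left out a library, and those of MCM2 and CDT1 in 10. With library sizes only, CDC45 in knockout cells changed sign, to -0.01. At that scaling the calls of MCM2, ORC6, CDT1, MCM10, POLE, RPA3, TK1 and CHAF1A in knockout cells also ended. So did those of RRM2 and POLD3 in control cells.

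The members that fell in both genotypes were GINS3, RRM1, RPA2 and RFC2. Of 38 members 8 rose and 4 fell in both, where 2921 and 3106 of all 17175 tested genes did. GINS3, a subunit of the GINS complex, went from 36.2, 33.1 and 36.6 to 23.8, 21.9 and 26.5 CPM in control and from 38.5, 35.7 and 41.0 to 32.1, 26.5 and 27.7 CPM in knockout cells. The stages did not overlap, at log2 fold changes of -0.55 ± 0.10 (adjusted p = 0.000174) and -0.42 ± 0.10 (adjusted p = 0.00144). RRM1 went from 281, 279 and 260 to 191, 185 and 196 CPM in control cells, a log2 fold change of -0.52 ± 0.07 (adjusted p = 9.29e-06), and changed by -0.33 ± 0.07 in knockout cells (adjusted p = 0.000596). RPA2 changed by -0.35 ± 0.07 and -0.32 ± 0.07, and RFC2, a clamp loader subunit, by -0.32 ± 0.08 and -0.39 ± 0.08. MCM3 was called lower in knockout cells only, at -0.35 ± 0.06 (adjusted p = 0.000127). So were RFC3 at -0.20 (adjusted p = 0.01) and FEN1 at -0.21 (adjusted p = 0.0109). RFC5 was called lower in control cells only, at -0.22 (adjusted p = 0.0172). The FEN1 call held in 11 and the RFC5 call in 9 of the 12 fits that left out a library. The calls of all 4 genes that fell in both genotypes, and of MCM5, POLA1 and CDC6, held in every alternative and with each library left out. Of the GINS3 exon bases 10.9% also lie in an antisense gene, and the counts were made without strand.

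**Figure D4:**
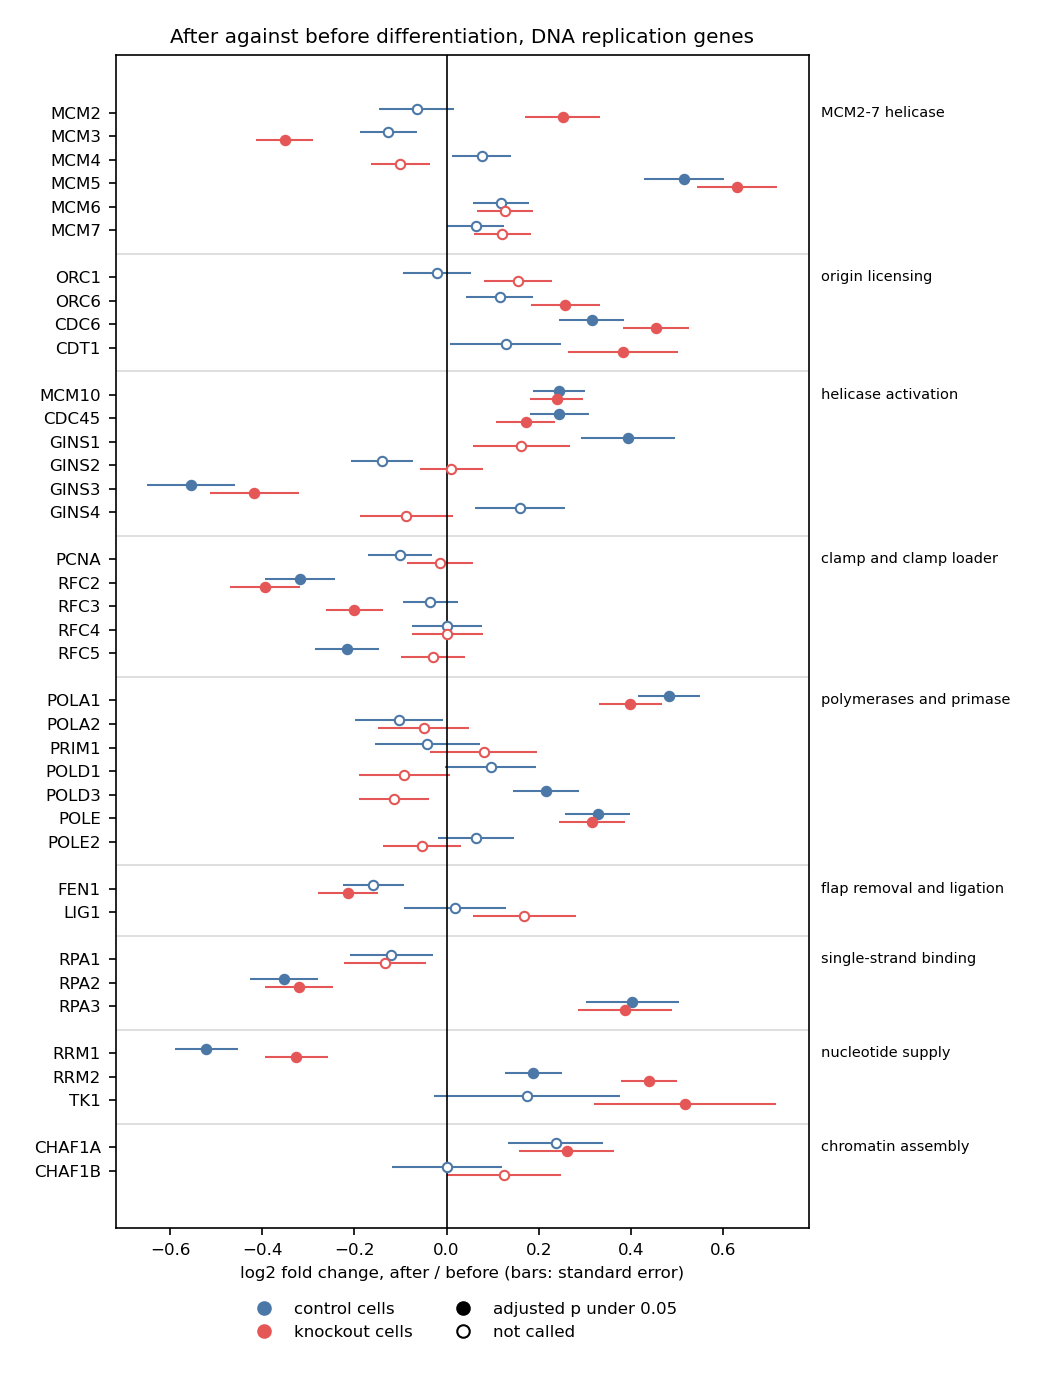
Log2 fold change after against before differentiation for each of the 38 genes in control (blue) and knockout (red) cells, grouped by role, with standard errors as bars and filled points for an adjusted p under 0.05. MCM5 lies farthest to the right at 0.63 in knockout cells and GINS3 farthest to the left at -0.55 in control cells.

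The knockout difference was tested against stage with an interaction term. Of the 38 members 0 were called higher and 1 lower, where 6.28% and 6.68% of all genes were called in those directions by edgeR's quasi-likelihood test. POLD3 was the member called: its knockout difference was -0.05 ± 0.07 before and -0.38 ± 0.07 after differentiation, a change of -0.33 ± 0.11 (adjusted p = 0.0472). The POLD3 call ended in 11 of the 12 fits that left out a library, with adjusted p between 0.0582 and 0.124, in DESeq2 (0.0638) and without the filter on low counts (0.182). At an unadjusted p under 0.05, MCM2 and RRM2 were higher and MCM3 and POLD3 lower, and DESeq2 called 0 higher. The interaction was 0.32 ± 0.12 for MCM2 (adjusted p = 0.0811) and 0.25 ± 0.09 for RRM2 (adjusted p = 0.0669).

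**Figure D5:**
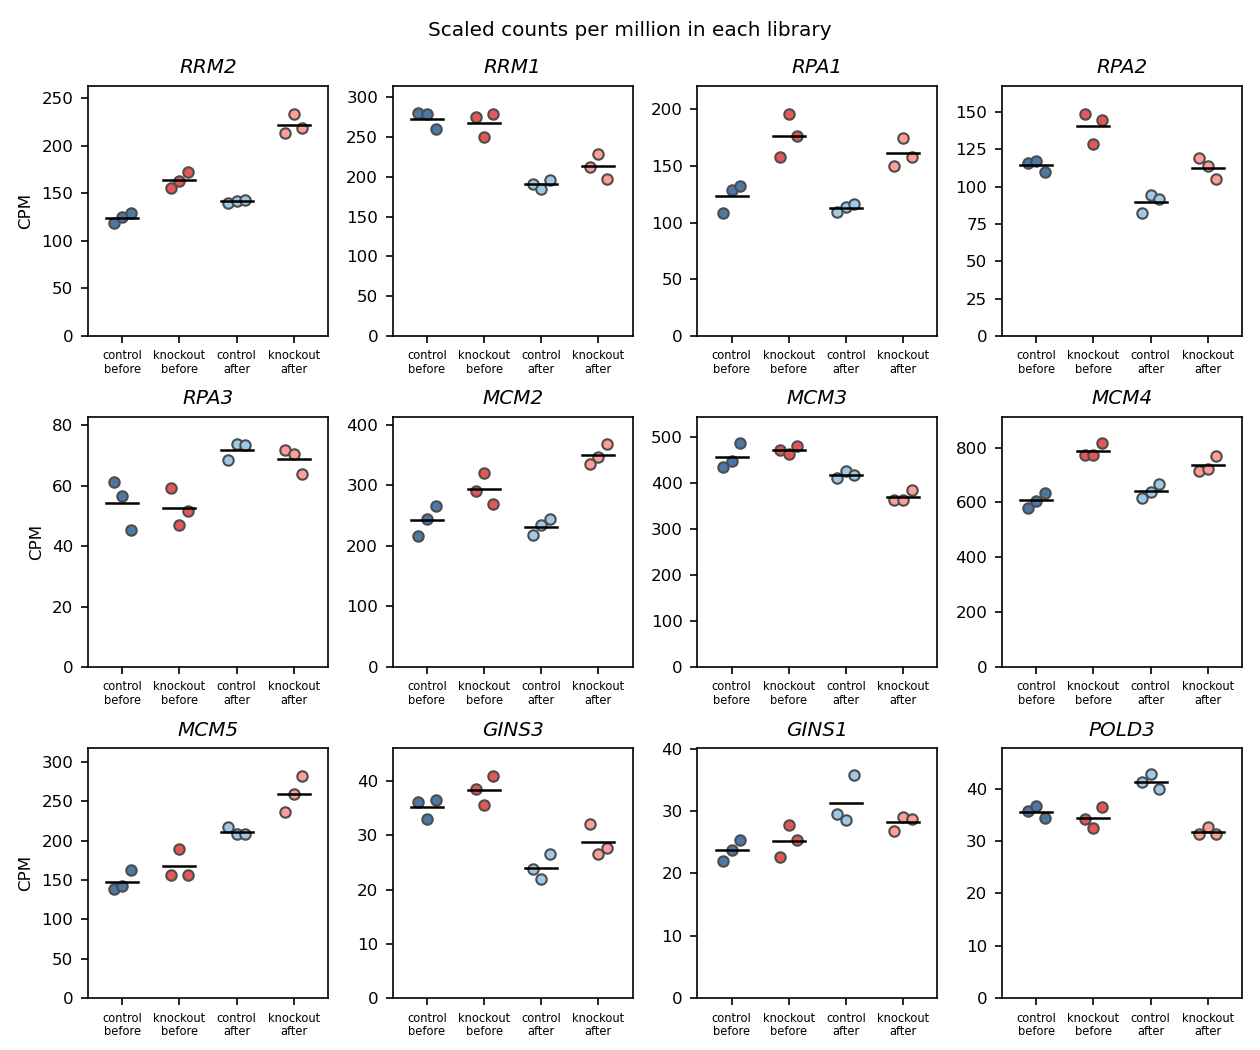
CPM of 12 of the genes in each library (points) with group means (lines), in the 4 groups, each panel on its own axis from 0. RRM2 reaches 213 to 233 CPM in knockout libraries after differentiation, above the 119 to 172 CPM of all libraries before it, while POLD3 is at 31.3 to 32.7 CPM there.

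MCM6, GINS4, PCNA, RFC4, POLA2, PRIM1, POLD1, LIG1 and CHAF1B were called in none of the 4 comparisons between groups. POLE, RPA2 and RRM2 were called in all 4. The share of all genes in either class was not counted, so these lists describe the members alone. RFC4, a clamp loader subunit, had 93.3 to 100 CPM in control cells before differentiation and a log2 change of 0.00 ± 0.07 with differentiation in them. Counts of GINS4 are uncertain, since 23.6% of its exon bases lie in antisense genes; the shares for RFC5 (10.6%), MCM7 (8.9%), POLD1 (8.8%), FEN1 (8.7%) and PRIM1 (6.8%) are smaller. Processed pseudogenes of FEN1, PCNA, RFC3, RFC5, RPA2 and RRM2 are listed in the table, and reads could be split between such copies.

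Promoter windows of 250 bases before to 50 after the start, from RefSeq on build GRCh38.p14, were found for 32 of the 38 genes. Letters of E2F sites (TTTCCCGC, TTTGGCGC, TTTCGCGC or TTTGCCGC, either strand) were in 16 of these 32 genes (50.0%), in 3.99% of all 27305 genes of the table and in 3.31% of its 35116 windows. CCAAT, either strand, was in 20 of 32 (62.5%) and in 39.7% of all genes of the table. The letters of the CHR element (TTTGAA or TTCGAA, either strand) were in 2 of 32 (6.2%) and in 19.5% of all genes of the table. A gene counts where any of its windows holds the letters. Of the members with a window, E2F letters stood in 5 of 9 that were higher in knockout cells after differentiation, in 4 of 4 that were lower and in 7 of 19 not called. The windows below belong to the members with the largest called and the smallest change in each comparison, to show these letters at both ends of the range; RRM2 and PCNA have 2 windows each, of which that listed first is given. Capitals mark E2F letters (runs of 8) and CCAAT or its reverse complement (runs of 5).
RPA1: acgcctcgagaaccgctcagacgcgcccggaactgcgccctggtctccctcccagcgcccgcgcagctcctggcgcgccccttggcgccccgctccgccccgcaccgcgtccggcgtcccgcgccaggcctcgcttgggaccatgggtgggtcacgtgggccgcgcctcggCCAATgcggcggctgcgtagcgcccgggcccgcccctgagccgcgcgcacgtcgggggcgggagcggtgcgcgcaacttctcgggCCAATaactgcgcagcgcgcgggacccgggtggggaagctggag
RRM2: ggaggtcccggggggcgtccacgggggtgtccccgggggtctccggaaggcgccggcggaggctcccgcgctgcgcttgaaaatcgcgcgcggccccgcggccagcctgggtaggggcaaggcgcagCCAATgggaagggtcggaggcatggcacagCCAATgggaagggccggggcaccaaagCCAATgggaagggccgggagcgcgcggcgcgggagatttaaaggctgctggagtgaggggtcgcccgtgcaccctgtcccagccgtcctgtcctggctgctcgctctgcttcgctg
GINS3: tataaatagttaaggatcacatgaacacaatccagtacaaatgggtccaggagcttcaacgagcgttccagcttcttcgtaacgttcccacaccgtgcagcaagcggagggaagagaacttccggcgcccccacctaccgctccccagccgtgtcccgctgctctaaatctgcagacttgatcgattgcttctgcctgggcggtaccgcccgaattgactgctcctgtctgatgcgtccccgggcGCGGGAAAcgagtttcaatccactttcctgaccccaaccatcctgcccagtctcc
PCNA: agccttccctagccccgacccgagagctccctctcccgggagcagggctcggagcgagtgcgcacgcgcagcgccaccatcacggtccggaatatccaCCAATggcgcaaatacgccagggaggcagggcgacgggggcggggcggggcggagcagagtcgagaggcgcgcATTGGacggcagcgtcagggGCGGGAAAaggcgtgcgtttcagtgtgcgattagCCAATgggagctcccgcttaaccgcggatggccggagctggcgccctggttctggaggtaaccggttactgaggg
RFC5: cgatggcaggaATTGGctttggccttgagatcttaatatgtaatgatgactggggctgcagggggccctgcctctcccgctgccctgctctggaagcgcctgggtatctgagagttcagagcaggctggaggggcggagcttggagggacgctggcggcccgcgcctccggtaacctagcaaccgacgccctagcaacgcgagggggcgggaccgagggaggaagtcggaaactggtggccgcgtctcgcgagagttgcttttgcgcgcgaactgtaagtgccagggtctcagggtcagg
RFC4: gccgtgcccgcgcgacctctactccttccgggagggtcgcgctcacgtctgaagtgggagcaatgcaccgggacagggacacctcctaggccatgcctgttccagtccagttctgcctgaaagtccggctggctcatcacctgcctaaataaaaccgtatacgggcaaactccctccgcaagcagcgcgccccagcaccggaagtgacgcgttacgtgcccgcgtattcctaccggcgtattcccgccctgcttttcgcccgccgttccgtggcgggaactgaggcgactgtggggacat
They lie at chr17:1829755-1830054, chr2:10122489-10122788, chr16:58392221-58392520, chr20:5126573-5126872, chr12:118016453-118016752 and chr3:186806433-186806732, in that order, the windows of PCNA and RFC4 on the minus strand and the others on the plus strand. RRM2 and RPA1, with the largest knockout difference after and before differentiation, hold CCAAT 3 and 2 times and no E2F letters in these windows. PCNA, with the smallest difference after differentiation, holds CCAAT 3 times and E2F letters once, and RFC4 holds neither. A match of letters is a description and not a bound site, and windows of MCM5 and POLD3, which the same rule chose, are not shown.

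Other genes of the pathway were counted from lists. After differentiation, where 16.8% of all genes were higher and 16.3% lower in knockout cells, 12 of 18 G1/S activators were higher (66.7%) and 3 lower (16.7%), with E2F2 at 1.70 ± 0.10, CCND3 at 1.64 ± 0.12 and CCNE1 at 0.87 ± 0.07, and with the ubiquitin ligase subunit SKP2 at -0.54 ± 0.07. Among G1/S repressors 8 of 15 were higher (53.3%) and 1 lower (6.67%), including the CDK inhibitors CDKN1C at 1.53 ± 0.15 and CDKN1B at 0.69 ± 0.07. Of 25 mitosis genes 12 were higher (48%) and 13 were not called. Of 34 other replication factors 3 were higher (8.82%) and 8 lower (23.5%), and of 11 other fork chromatin genes 2 were higher (18.2%) and 0 lower. Of 12 other nucleotide supply genes 1 was higher (8.33%) and 6 lower (50%), with the mitochondrial thymidine kinase TK2 at -1.03 ± 0.16. Before differentiation, where 9.07% of all genes were higher and 8.15% lower, 5 of 18 activators were higher (27.8%) and 3 lower (16.7%), 3 of 15 repressors higher (20%) and 1 lower (6.67%), and 4 of 25 mitosis genes higher (16%) and 2 lower (8%). At that stage 3 of 34 other replication factors were higher and 3 lower (8.82% each), 1 of 12 nucleotide supply genes was higher (8.33%) and 2 lower (16.7%), and 1 of 11 fork chromatin genes was higher (9.09%) and 0 lower. With differentiation in control cells 6 of 15 repressors were higher (40%) and 1 lower (6.67%), where 21.5% and 22.3% of all genes were. Of 18 activators 4 were higher and 4 lower (22.2% each), and of 25 mitosis genes 5 (20%) and 6 (24%). Of 12 nucleotide supply genes 2 were higher (16.7%) and 8 lower (66.7%), and of 11 fork chromatin genes 3 and 3 (27.3% each). CDKN1A, the p21 CDK inhibitor, rose there by 3.33 ± 0.38, but on few counts (4, 4 and 2 before, 27, 43 and 29 after). Of 34 other replication factors 7 were higher (20.6%) and 11 lower (32.4%), and ATAD5, which unloads PCNA, rose by 1.00 ± 0.08. In knockout cells 28% of all genes were higher and 27.7% lower with differentiation. There 12 of 18 activators were higher (66.7%) and 4 lower (22.2%), and 12 of 15 repressors higher (80%) and 2 lower (13.3%). Of 25 mitosis genes 15 were higher (60%) and 2 lower (8%). Other replication factors (6 higher, 9 lower), nucleotide supply (1, 7) and fork chromatin genes (3, 3) were also called both ways. Erythroid markers moved with the same comparisons: 12 of 18 were higher in knockout cells before and 17 of 18 after differentiation. Their summed level was 9698 to 14700 CPM in control and 10690 to 16290 in knockout libraries before it, which overlap, and 11970 to 14750 against 23800 to 35770 after it. These sums include HBA1, HBA2 and HBB, although the kit depletes globin mRNA. Globin genes took 0.125% to 0.615% of counts in control and 0.143% to 0.579% in knockout libraries before differentiation. After it they took 0.0834% to 0.311% against 0.22% to 1.25%. The part of uneven depletion in the sums was not tested. Mast cell and basophil markers, 5 and 8 lower of 9 tested out of 16 listed, summed to 1147 to 1186 CPM in control and 935 to 961 in knockout libraries before and to 799 to 819 against 449 to 466 after differentiation. Neutrophil and monocyte markers, 5 and 0 higher of 6 tested out of 16 listed, summed to 14.8 to 17.3 CPM in control and 32.9 to 42.6 in knockout libraries before and to 5.68 to 6.32 against 6.13 to 9.42 after differentiation, where the groups overlap. ELANE and PRTN3 averaged 1.51 and 1.66 CPM in knockout libraries before differentiation and at most 0.183 and 0.387 CPM in the other groups. The filter could keep them only through the group where they are high, so their part in the count of 5 carries no support. The part of these cell states in the members' values was not tested.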

How the data were processed

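The deposited values are unnormalized read-pair counts per gene in 12 libraries. They were made by the authors with featureCounts 1.4.6-p4, per the file headers, from pairs on GENCODE 22 exons and without a strand option. Per the submitters' processing notes, the build was GRCh38 and the tools were Trimmomatic, FastQC, Subread 1.6.2, featureCounts 1.2.6 and edgeR 3.18.1; the 2 featureCounts versions differ. Per the labels' protocols, total RNA was prepared with a stranded kit that depletes ribosomal RNA and globin mRNA. Symbols came from GENCODE 29 by identifier.

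Testing used edgeR 4.0.16 under R 4.3.3 (filterByExpr with 4 groups, TMM, glmQLFit, two-sided glmQLFTest on group means over all 12 libraries, 8 residual degrees of freedom). A call needs a p under 0.05 after Benjamini-Hochberg adjustment over the 17175 genes that passed the filter. The standard error is the size of the log2 fold change divided by the square root of F. The 38 members had 127 to 10718 counts in a library (median 881). GC content is that of the longest GENCODE 29 transcript. The script was tested on simulated data. The alternatives were other scalings, DESeq2 1.42.0, no filter on low counts, the replicate block, only the groups compared, and each library left out. Named genes are called members (up to 10 a direction with full statistics) and up to 4 genes of each other list with the smallest adjusted p. Members and lists were chosen with earlier results of these data known.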

Additional observations from a re-analysis of the deposited data

Results flagged for a closer look

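The knockout effect was called different between the stages, by the interaction test of edgeR, for POLD3 among the members, at -0.33 (log2, after minus before). That call held in only 1 of the 12 fits that left out a library and in 2 of 5 other settings. In the pathway lists, the called genes with the smallest adjusted p in the same test were as follows, up to 2 a list, as after minus before on the log2 scale. LRWD1, which binds the origin recognition complex, gave -0.81 and TIPIN, a fork protection factor, -0.47. The nucleotide enzymes NME1 and DCTPP1 gave -0.61 and -0.81, and the histone chaperone ASF1A, the only fork chromatin gene called, gave 0.52. E2F2 gave 1.09 and CCND3 1.11, CDKN1B gave 0.55 and E2F7 0.71, and the mitosis genes MKI67 and KIF23 gave 0.49 and 0.38. Of the marker lists, 7 erythroid markers were called higher and 1 lower of 18 in this test, and 1 mast cell and basophil marker higher and 6 lower of 9 tested. Of all genes 6.28% were called higher and 6.68% lower. MS4A2, of the mast cell list, averaged 69.4 CPM in control libraries before differentiation. It averaged 0.994 CPM in knockout libraries before, and 1.21 and 0.309 CPM in control and knockout libraries after differentiation. These low levels limit what its interaction can show. Groups of 3 libraries were not tested for outlying libraries.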

How the results depend on the processing

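The number of members called moved by over 1.5 times in these cases. With library sizes only, 4 were higher in knockout cells before differentiation, 3 higher and 10 lower after it, 8 lower with differentiation in control cells, 4 higher and 17 lower in knockout cells, and 4 lower in the interaction. At that scaling the counts over all 17175 genes were, in the same order, 1237, 1843 and 4826, 4277, 3427 and 6337, and 2146. That scaling also turned 3 values in knockout cells with differentiation: CDC45 to -0.012 (adjusted p = 0.893), GINS2 to -0.17 (0.0433) and RFC4 to -0.18 (0.0433), and it put the median level per length at 22.3 CPM per kb before and 19.6 after differentiation in knockout cells. Without the filter on low counts, where 44432 genes were tested, 1 was lower in knockout cells after differentiation, 6 were higher with differentiation in control and 8 in knockout cells, and 0 were lower in the interaction. Over all genes these counts were 2762, 3621, 4780 and 1196. With only the groups compared, 4 were higher before differentiation, beside 1055 of 16144 genes. The cause was not tested. In the 200 bases nearest the start, 0 of the 32 members with a window held CHR letters, beside 12.4% of all genes of the table.

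With each library left out in turn, members called ranged from 4 to 8 higher and 0 to 1 lower before differentiation, 7 to 17 and 1 to 5 after it, 8 to 11 and 4 to 6 with differentiation in control cells, 8 to 14 and 6 to 7 in knockout cells, and 0 to 3 and 0 to 1 in the interaction. With the replicate block, 2 were higher and 0 lower in the interaction, beside 1344 and 1384 of all 17175 genes. POLD3 there had an adjusted p of 0.0538. Same-numbered libraries correlated at -0.02 to 0.25 in their deviations from the group means, and 10 of 12 libraries correlated best with their own number, a hint from the data and not the design. Depth limits TK1 most among the members, with as few as 127 counts in a library.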
